A study of Sus scrofa domesticus with 150 samples.

Results

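Oxidative stress defense was followed through porcine wound healing with 9 genes, HMOX1, SRXN1, NQO1, GCLM, TXNRD1, SOD2, SOD3, CAT and GPX3. They were chosen by gene symbol from the 30461 genes of the count table. The name column gave 7 of them and the protein match in the gene description gave SRXN1 and GCLM. Each symbol matched 1 row, and all 9 genes passed the filter on low counts, as did 17916 genes in all. RNA was measured in 150 samples from 6 female domestic pigs of a Yorkshire mix, numbered 1323 to 1328. Full-thickness circular pieces of skin were excised, the wounds were covered with a nonstick dressing under a transparent film, and antibiotic ointment was applied at biopsied sites. The 6 day 0 samples were excised unwounded skin, 1 from each animal, and all others were an edge and a center biopsy from each of 72 wounds on 14 days. Days 1, 3, 5, 7, 11, 15 and 21 came from animals 1323 to 1325 and days 2, 4, 6, 9, 13, 16 and 19 from animals 1326 to 1328, with 2 wounds per animal on the days up to 13 and 1 wound per animal later. Neighboring days therefore came in most cases from different animals, and days of different animal sets cannot be told apart from the animals, whereas days within a set of 3 animals can be compared. All wounds of an animal shared that animal, so the samples of a state are wounds and not separate animals.

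Reactive oxygen species are made in a wound by the NADPH oxidases of phagocytes and other cells, and cells remove them in steps. Superoxide dismutases turn superoxide into hydrogen peroxide, catalase and the glutathione peroxidases break the peroxide down, and the thioredoxin and glutathione systems return oxidized proteins to their reduced state. Many of these genes are targets of NRF2, a transcription factor that the adaptor KEAP1 marks for degradation until oxidants or electrophiles release it. HMOX1, NQO1, GCLM, SRXN1 and TXNRD1 are widely used as NRF2 targets, whereas SOD2 is known as a target of inflammatory signaling through NF-kappa B.

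The smallest library held 13133379 counts, the median 17643938.5 and the largest 24895572. Levels are given as CPM, the count scaled to a common library total, and means and SD as log2(1 + CPM). The labels were checked against marker genes. The summed CPM of 9 of 10 keratinocyte markers found ranged from 33383 to 81446 on day 0 and had a median of 48001 at the edge and 207 in the center. Edge sample 6 of day 3 had 67.5, the lowest value among the edge samples, and center sample 4 of day 3 had 31750. That sample and edge sample 4 of day 3, from the same wound, were the closest of all 11175 pairs of libraries, with a chi-square of their counts of 4.92 per degree of freedom, against a median of 291 over the 72 pairs of edge and center from a wound. The pair of samples 6 of day 3 came next (17.2). These 2 wounds are in the day 3 differences and the counts over wounds below, and leaving out the libraries apart leaves out 1 sample of each. Center samples 2 of day 2, 5 of day 6 and 5 of day 9 had summed CPM of skeletal muscle markers between 37055 and 85800, against a median of 12 in the center. Edge sample 6 and center sample 4 of day 3 and these 3 center samples were set apart. Edge sample 6 of day 5 and center sample 1 of day 11 were set apart too. The calls below are also given without these 7 wherever leaving them out changed them. No threshold on the markers defined the 7, and edge sample 6 of day 5 had 26863 CPM of keratinocyte and 9.69 of muscle markers. Other samples with such markers stayed in, except where their replicate number was left out. Among them, edge sample 5 of day 9 had 45650 CPM of muscle markers. Mean log2(1 + CPM) of muscle markers was 11.3 in center sample 6 of day 2 and 10.9 in center sample 3 of day 3. The keratinocyte mean was 10.3 in center sample 5 of day 1. RNA came from whole tissue, so fewer cells of a type and less RNA per cell cannot be told apart.

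HMOX1, SRXN1 and SOD2 rose in the wound, NQO1 rose at the wound edge in the first week, and the other 5 genes moved in both directions. The size of the movement was not smaller for all of these 5. From the lowest to the highest state mean, GPX3 spanned 4.52 and SOD3 4.15 on the log2(1 + CPM) scale, and SRXN1 2.07. Each of the 28 wound states was compared with unwounded skin by edgeR's quasi-likelihood test over all 150 samples, and a gene was called at a Benjamini-Hochberg adjusted p below 0.05. At the edge, 45 of the 126 pairs of a member and a day were called higher and 9 lower, where 19.9% and 14.6% of the pairs over all genes were called. In the center 53 were called higher and 19 lower, against 28.2% and 27.5% over all genes. By day, 7.61% to 26.8% of all genes were called higher and 1.98% to 24.4% lower at the edge, and 19.2% to 33.3% higher and 16% to 33.4% lower in the center. HMOX1 and SRXN1 were called higher on all 14 days at both locations, SOD2 on 10 days at the edge and 12 in the center, and NQO1 on 5 days at the edge. The remaining 5 genes held 2 of the 45 calls of a higher level at the edge and 13 of the 53 in the center. All 28 contrasts share the 6 day 0 samples and are not independent of each other. Where samples of 2 groups are said below not to overlap, the share of all genes that do so was not computed.

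**Figure D1:**
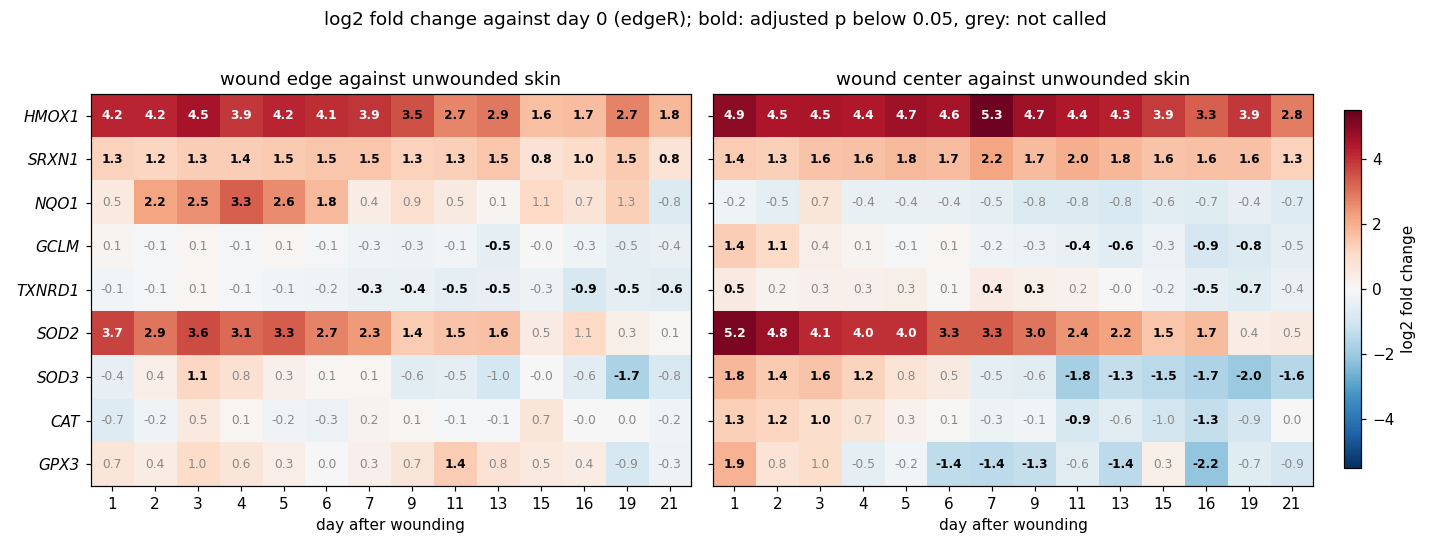
Log2 fold changes of the 9 genes (rows) against unwounded skin on 14 days (columns) at the wound edge (left) and in the wound center (right), with color from blue (lower) to red (higher). Bold numbers passed an adjusted p of 0.05 in edgeR, and the rows of HMOX1 and SRXN1 are bold throughout, with the highest value for HMOX1 in the center on day 7 (5.34).

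**Figure D2:**
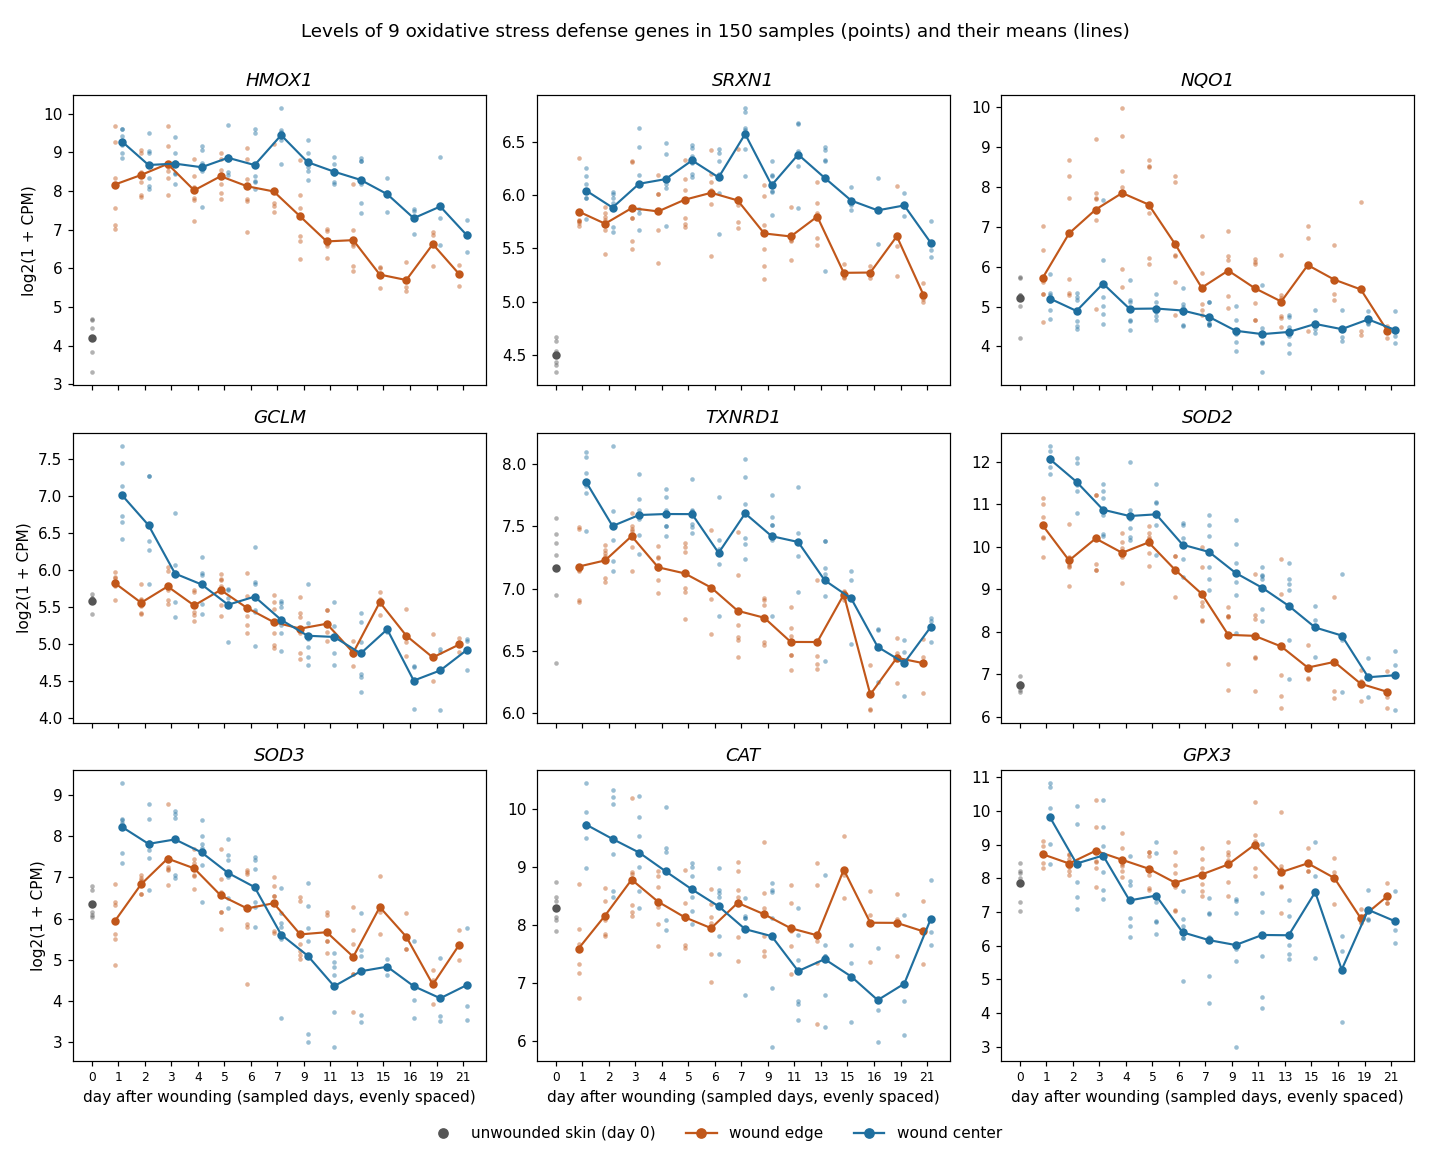
Levels of the 9 genes on the log2(1 + CPM) scale (vertical axis, scaled for each gene) by sampled day (horizontal axis, evenly spaced) in unwounded skin (grey), at the wound edge (orange) and in the wound center (blue). Small points are the 150 samples and large points the means, and SOD2 falls from a center mean of 12.06 on day 1 to 6.97 on day 21.

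HMOX1 (ENSSSCG00025050025, contig LUXX01093914.1 from 1452755 to 1464946) encodes heme oxygenase 1, the inducible enzyme that splits heme into biliverdin, iron and carbon monoxide. In the 6 samples of unwounded skin its lowest, median and highest CPM were 8.91, 18.9 and 24.9. In the 6 day 1 center samples they were 465, 635 and 779.9, and at the day 1 edge 129, 256 and 816. The values of all 28 wound states lay above those of day 0 without overlap, the lowest being 41.2 CPM at the day 16 edge. On day 1 the log2 fold change was 4.94 ± 0.41 (SE) in the center, 30.7-fold (edgeR, adjusted p = 2.05e-20), and 4.2 ± 0.39 at the edge, 18.4-fold (adjusted p = 6.34e-16). In the center the state means stayed between 8.62 and 9.45 on days 1 to 7. The highest state mean was that of the day 7 center, 9.45 ± 0.47 (SD, n = 6) on the log2(1 + CPM) scale, where the fold change reached 5.34 ± 0.41, or 40.5-fold (edgeR, adjusted p = 2.66e-22). At the edge the log2 fold change declined from 3.93 on day 7 to 2.67 on day 11 and 1.64 on day 15, and was 2.74 on day 19. The 3 day 15 edge samples had 43.6, 63.4 and 64.1 CPM, and the 3 day 15 center samples 176, 249 and 320. On day 21 the fold change was 3.52-fold at the edge and 7.13-fold in the center, so the gene had not returned to the level of unwounded skin at the end of sampling.

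The edge was called lower than the center for HMOX1 on days 7, 9, 11, 13, 15 and 16 and on no earlier day, among 11% of gene and day pairs called in that direction over all genes. On day 3, 0 of 14581 genes were called in either direction, and on day 19, 0 of 14413. On day 21, 10 of 14621 genes were called, all higher at the edge. A missing call of any member on these days therefore does not show an equal level. The clearest separation was on day 11, when the edge samples had 76.2 to 129 CPM and the center samples 291 to 474, a log2 difference of -1.75 ± 0.15 (edgeR, adjusted p = 1.65e-05). From day 7 to day 16 the difference was between -2.19 and -1.18, and the edge was the lower one in every wound of those 6 days. On days 2 and 3 it was lower in 3 of 6 wounds each, with differences of -0.25 and 0.04. With the wound as a replicate block, day 1 (-1.06, adjusted p = 0.0457) and day 21 (-1.02, adjusted p = 0.0423) were called as well. Replicate numbers were left out 1 at a time, each from every state. For calls against unwounded skin this also removed a day 0 sample. Between edge and center, 2 to 5 of the 14 days were then called for HMOX1. The day 9 difference of -1.18 missed the threshold without replicate 1, 3, 4, 5 or 6 (adjusted p between 0.0575 and 0.0934 in edgeR). Days 9 and 13 also missed it with the wounds of an animal summed (-1.15, adjusted p = 0.117, and -1.37, adjusted p = 0.0949 in edgeR). Day 13 missed it without replicate 2, 3 or 6 (adjusted p between 0.052 and 0.0672), and days 15 and 16, with 3 wounds each, without replicate 2 or 3.

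SRXN1 (ENSSSCG00025066060, contig LUXX01070315.1 from 737410 to 744363) encodes sulfiredoxin, which repairs overoxidized peroxiredoxins at the expense of ATP. Its rise was smaller than that of HMOX1 and varied little between samples. Unwounded skin had 19.3, 21.4 and 24.5 CPM as lowest, median and highest value, and the day 7 center had 71.2, 97.1 and 111. No wound sample of any state overlapped unwounded skin, the lowest being 31.0 CPM at the day 21 edge. The log2 fold changes ranged from 0.76 to 1.54 at the edge and from 1.25 to 2.15 in the center, where day 7 was the highest (4.45-fold; edgeR, adjusted p = 1.97e-22). The gap between the mean of unwounded skin, 4.5 ± 0.13 (SD, n = 6), and the nearest wound state was 4.93 times the pooled SD of the pair, the widest such gap of the 9 genes. The edge was called lower than the center on days 5, 7, 9, 11 and 15, by 0.35 to 0.77 on the log2 scale. Of these, day 9 (-0.44) was lost without the 7 libraries (adjusted p = 0.0562) and with the wounds of an animal summed (-0.43, adjusted p = 0.174), and 2 to 4 days were called with 1 replicate number left out. Day 5 missed the threshold without replicate 1, 2, 3, 4 or 5, day 9 without 1, 3, 4, 5 or 6, and day 15 without 2 or 3.

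TXNRD1 (ENSSSCG00025049069, contig LUXX01060250.1 from 527866 to 648145) encodes the cytosolic thioredoxin reductase, the selenoenzyme that keeps thioredoxin reduced. Its level changed little. Unwounded skin spanned 83.3 to 189 CPM with a median of 159, the day 1 center 175 to 274 with a median of 235, and the day 16 edge samples had 64, 64.3 and 82.7 CPM. The day 1 center overlapped unwounded skin and the day 16 edge did not. The gene was called higher in the center on days 1, 7 and 9 (log2 fold changes of 0.48, 0.45 and 0.33), lower in the center on days 16 and 19 (-0.50 and -0.65), and lower at the edge on 7 days from day 7 on (-0.35 to -0.88). Library size without TMM moved the median of all genes against day 0 by -0.26 to 0.17 and lost the day 7 edge (-0.35, adjusted p = 0.0525) and the day 9 center (0.24, adjusted p = 0.167). With only day 0 and the state in a fit, 8 of the 12 calls missed the threshold (adjusted p between 0.0591 and 0.204), those of the edge on days 7, 9, 19 and 21 and of the center on days 7, 9, 16 and 19. With 1 replicate number left out the center was called higher on 1 to 6 days and the edge lower on 2 to 7 days, and the day 7 edge was lost without replicate 1 (-0.25), 3 (-0.26), 4 (-0.22) or 6 (-0.34). In the center days 16 and 19 were lost without replicate 1 (-0.33 and -0.49), and without the 7 libraries day 9 in the center was lost (0.30, adjusted p = 0.0869). The day 16 center was also lost without replicate 3 or 4, and the day 7 center without 2 or 6. The day 11 edge was lost with the animal as a replicate block (-0.35, adjusted p = 0.107 in edgeR) and without replicate 3 (-0.39, adjusted p = 0.0606). Within wounds the direction was steadier, with the edge below the center in 64 of 72 wounds and called on days 1, 4, 5, 7, 9 and 11, by 0.38 to 0.79 on the log2 scale. With the wound as a replicate block day 13 was called too (-0.41, adjusted p = 0.0206 in edgeR).

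NQO1 (ENSSSCG00025053223, contig LUXX01060426.1 from 1042554 to 1052676) encodes the quinone reductase that removes electrophilic quinones by a 2-electron reduction. It rose at the edge from day 2 to day 6. Unwounded skin had 17.6, 38.1 and 52.4 CPM as lowest, median and highest value. The day 2 edge had 38.2, 130 and 410 CPM, the day 4 edge 44.0, 296 and 1001, and the day 6 edge 26.8, 77.0 and 306. The highest edge samples lay many times above unwounded skin and the lowest inside its range, except on day 5, whose lowest value of 66.1 CPM was above it. The log2 fold changes at the edge were 2.16, 2.50, 3.30, 2.58 and 1.78 on days 2 to 6 (adjusted p from 4.45e-07 on day 4 to 0.00256 on day 6), the largest being 9.82-fold. On day 7 the edge samples had 26.8 to 107 CPM with a median of 37.8, and the fold change of 0.40 was not called.

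In the center, NQO1 was called on 0 of 14 days in either direction by edgeR, with 0 days at an unadjusted p below 0.05 and 0 by DESeq2, and its log2 fold changes ranged from -0.82 to 0.67. The highest of these, on day 3, included center sample 4 with 202 CPM, the library with keratinocyte markers, while the median of that state was 33.9 CPM. Without the 7 libraries, day 11 in the center was called lower (-1.17, adjusted p = 0.0477). The edge was higher than the center in 63 of 72 wounds. It was called higher on days 2, 4, 5, 6, 7, 9, 11 and 13, among 12.5% of gene and day pairs called in that direction over all genes, by 0.91 to 3.67 on the log2 scale. On day 3, when 0 of 14581 genes were called, the difference was 1.84, and without the 7 libraries it was 2.81 (adjusted p = 0.00960). With the wound as a replicate block, days 7 and 13 missed the threshold (0.73, adjusted p = 0.0891, and 0.88, adjusted p = 0.0588). With the wounds of an animal summed day 11 missed it (1.33, adjusted p = 0.0639). Leaving out replicate 3 took day 6 to 1.85 (adjusted p = 0.0635). Day 7 was lost without replicate 4, 5 or 6 (lowest 0.46), day 11 without 3, 4 or 5 (lowest 1.00), and day 13 without 1, 3 or 5 (lowest 0.63).

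The spread of NQO1 at the edge was the largest of the 9 genes in those days, with an SD of 1.79 on day 4. Wounds of the same animal differed. On day 4 wounds F and G had 256 and 618 CPM in animal 1326, 60.0 and 1001 in animal 1327, and 44.0 and 336 in animal 1328. On day 3 they had 211 and 584 CPM in animal 1323, 29.7 and 206 in animal 1324, and 230.3 and 143 in animal 1325. Wound G was higher in 5 of these 6 animals, and animal 1325 was the exception. A difference between wound sites was not tested. In animal 1325 wound G was that of edge sample 6, which lacked keratinocyte markers. In animal 1324 it was that of edge sample 4, whose library was the closest to its center library. Over the 72 edge samples NQO1 and the keratinocyte markers had r = 0.006.

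GCLM (ENSSSCG00025077572, contig LUXX01091791.1 from 1256874 to 1275762) encodes the modifier subunit of glutamate-cysteine ligase, which controls the rate of glutathione synthesis. It was called higher in the center on days 1 and 2 and lower on later days. Unwounded skin was tight, between 41.3 and 49.9 CPM with a median of 47.5. The day 1 center had 84.9, 122 and 204 CPM as lowest, median and highest value and the day 2 center 55.1, 89.7 and 154, both above unwounded skin without overlap. The log2 fold changes were 1.35 ± 0.19 on day 1 (edgeR, adjusted p = 1.12e-09) and 1.07 ± 0.19 on day 2 (adjusted p = 5.65e-07). The edge had 47.3 to 61.7 CPM on day 1 and was not called against unwounded skin on either day, and it was called lower than the center by 1.22 and 1.17 on those days. Later the center was called lower than unwounded skin on days 11, 13, 16 and 19 (-0.42 to -0.90) and the edge on day 13 (-0.54). Day 11 missed the threshold without the 7 libraries (-0.39, adjusted p = 0.0538), whereas day 9 (-0.53, adjusted p = 0.00775) and day 21 (-0.52, adjusted p = 0.0439) passed it. The day 11 center was also lost with no filter on low counts, the animal as a replicate block or the wounds of an animal summed. It was lost too without replicate 1, 2, 4, 5 or 6 (edgeR, adjusted p between 0.0566 and 0.159). Day 19 was lost without replicate 1 (-0.52, adjusted p = 0.150).

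SOD2 (ENSSSCG00025040769, contig LUXX01058187.1 from 2138262 to 2179371) encodes the manganese superoxide dismutase of mitochondria. It had the largest change of the 9 genes next to HMOX1 and, unlike HMOX1, was at its highest on day 1. Unwounded skin had 95.0, 105 and 124 CPM as lowest, median and highest value. The day 1 center had 3346, 4299.8 and 5324 CPM and the day 1 edge 861, 1427 and 2268. The log2 fold changes were 5.17 ± 0.46 in the center, 36.1-fold (edgeR, adjusted p = 1.15e-18), and 3.73 ± 0.43 at the edge, 13.3-fold (adjusted p = 3.65e-12). By day 7 they were 3.32 and 2.32 and by day 13 they were 2.22 and 1.62. The last called days were day 13 at the edge and day 16 in the center, and each was lost without 1 replicate number. Without replicate 6 the day 13 edge was 0.95 (adjusted p = 0.0684), and without replicate 3 the day 16 center was 0.82 (adjusted p = 0.205). On day 21 the 3 edge samples had 73.1, 87.5 and 134 CPM and the 3 center samples 70.4, 147 and 187, which overlapped unwounded skin. The edge was called lower than the center on days 1, 2, 4, 5, 7 and 9 by 0.69 to 1.81, and was lower in 65 of 72 wounds. With the wound as a replicate block, day 11 (-1.07, adjusted p = 0.0124) and day 15 (-1.03, adjusted p = 0.0389) were called too, and with 1 replicate number left out 3 to 5 days were. With the wounds of an animal summed, day 5 (-0.64, adjusted p = 0.0552) and day 9 (-1.60, adjusted p = 0.051) missed the threshold. Without the 7 libraries day 6 passed it (-0.74, adjusted p = 0.0195 in edgeR). Day 4 was lost without replicate 1, 2, 3, 5 or 6, day 5 without 1, 2, 3 or 6, and day 7 without 1, 3, 4, 5 or 6.

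SOD3 (ENSSSCG00025006411, contig LUXX01010790.1 from 1240882 to 1246400) encodes the secreted superoxide dismutase that binds to the extracellular matrix. It was higher than unwounded skin early in the center and lower late. Unwounded skin had 65.3, 74.6 and 109 CPM as lowest, median and highest value. The day 1 center had 161, 327 and 621 CPM, above unwounded skin without overlap, while the day 1 edge had 28.3, 64.5 and 114. The center was called higher on days 1 to 4 (1.83, 1.45, 1.57 and 1.24) and lower on days 11 to 21 (-1.31 to -2.04). On day 11 its samples had 6.35 to 34.8 CPM with a median of 25.6, all below unwounded skin. On days 15 to 21, with 3 samples per state, the calls were less firm, and without replicate 1 days 13, 15, 16, 19 and 21 missed the threshold (log2 fold changes of -1.0 to -1.68). Day 16 was also lost without replicate 2 (-1.42), day 15 without 2 or 5 and day 21 without 2 or 5, and day 4 without replicate 4 (1.02, adjusted p = 0.052). At the edge the gene was called higher on day 3 (1.13) and lower on day 19 (-1.73). The day 3 call was lost without the 7 libraries (0.72, adjusted p = 0.174) and without replicate 2 or 6. Edge sample 6 had 438 CPM and the other 5 samples 112 to 179. The day 19 call was lost without replicate 1 (-1.64, adjusted p = 0.0806) or 2 (-1.59, adjusted p = 0.0932).

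CAT (ENSSSCG00025029523, contig LUXX01035113.1 from 42835 to 88901) encodes catalase, the peroxisomal enzyme that splits hydrogen peroxide into water and oxygen. Unwounded skin had 238, 309 and 425 CPM as lowest, median and highest value. The day 1 center had 507, 859 and 1388 CPM, above unwounded skin without overlap, and the day 1 edge 106, 182 and 416, which overlapped it. The center was called higher on days 1, 2 and 3 (1.31, 1.20 and 0.96) and lower on days 11 and 16 (-0.89 and -1.33). Day 3 was lost with the animal as a block (0.92, adjusted p = 0.0615) and without replicate 2, 5 or 6, day 11 without the 7 libraries (-0.79, adjusted p = 0.0720) and without replicate 1, 2, 3, 4 or 5, and day 16 without replicate 1 or 2. By day 21 the 3 center samples had 199.6, 235 and 437 CPM, which overlapped unwounded skin. At the edge CAT was called on 0 of 14 days by edgeR, with 0 days at an unadjusted p below 0.05 and 0 by DESeq2.

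GPX3 (ENSSSCG00025033090, contig LUXX01062592.1 from 1058840 to 1067395) encodes the secreted glutathione peroxidase found in plasma and extracellular fluid. Unwounded skin had 129, 271 and 348 CPM as lowest, median and highest value. The day 1 center had 341, 984 and 1803 CPM, with the lowest sample inside the range of unwounded skin, and the day 9 center 6.89, 91.2 and 168. The center was called higher on day 1 (1.91, adjusted p = 0.00153) and lower on days 6, 7, 9, 13 and 16 (-1.32 to -2.18). With 1 replicate number left out, 2 to 5 days were called lower in the center. Day 6 was lost without replicate 4 or 6, day 7 without 1 or 6, day 9 without 1, 3 or 4, day 13 without 1 or 4 and day 16 without 2, and without the 7 libraries day 11 was called too (-1.55, adjusted p = 0.0111). The edge was called on day 11 alone, with 266.6 to 1225 CPM (1.39, adjusted p = 0.0375), and that call was lost without replicate 2 (0.89, adjusted p = 0.269), 5 or 6. The edge was called higher than the center on days 4, 6, 7, 9 and 13, by 1.12 to 2.21, and lower on day 1, by 1.25. On days 7 and 9 the edge samples lay above the center samples without overlap. Day 6 missed the threshold with the wound as a block (1.42, adjusted p = 0.100), and without replicate 2, 3, 4, 5 or 6, day 4 without replicate 1, 3, 4, 5 or 6, day 9 without 1 (1.74, adjusted p = 0.0898) and day 1 without 5 (-0.99, adjusted p = 0.0522). With the wounds of an animal summed, day 9 (1.96, adjusted p = 0.0938) and day 13 (2.20, adjusted p = 0.0556) missed it. Day 11 passed it with the block (2.79, adjusted p = 0.0391) and without the 7 libraries (2.91, adjusted p = 0.00307).

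Later days were compared with earlier days of the same 3 animals, day 7 with day 1 and day 21 with day 7 in animals 1323 to 1325, and day 9 with day 2 and day 19 with day 9 in animals 1326 to 1328. Of the 72 pairs of a member and a contrast, 21 were called lower on the later day and 2 higher, against 10.1% and 11% over all genes. In the center, 5 members fell from day 1 to day 7, when 19% of all genes fell, and the same 5 from day 2 to day 9 in the other animals, when 16.3% fell. The log2 changes were -3.34 and -2.08 for GPX3, -2.33 and -2.09 for SOD3, -1.85 and -1.79 for SOD2, -1.59 and -1.35 for CAT, and -1.57 and -1.41 for GCLM. SRXN1 rose over the same intervals, by 0.75 (edgeR, adjusted p = 7.03e-05) and 0.40 (adjusted p = 0.0451), and the second of these missed the threshold without TMM (0.21, adjusted p = 0.275) and without replicate 3, 4, 5 or 6. CAT from day 2 to day 9 missed it without replicate 1 (-0.99, adjusted p = 0.0842). HMOX1 did not change over these intervals beyond the threshold (0.40 and 0.21). HMOX1 fell from day 7 to day 21, by 2.50 on the log2 scale in the center (edgeR, adjusted p = 1.52e-05) and by 2.12 at the edge (adjusted p = 0.0013), and its change from day 9 to day 19 in the other animals was -0.79 and -0.75 and was not called. TXNRD1 fell late in the center in both sets of animals, by 0.83 and 0.98. SOD2 fell in 7 of the 8 contrasts. At the edge, the falls from day 7 to day 21 were lost without replicate 2 for HMOX1 (-1.75, adjusted p = 0.054), SOD2 (-1.78, adjusted p = 0.112) and SRXN1 (-0.60, adjusted p = 0.156), and that of SRXN1 also without replicate 3.

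Whether the difference between edge and center changed over the 14 days was tested by an edgeR F test, which called 30.8% of all genes. Of the 9 members 7 were called, GCLM (adjusted p = 9.5e-08), CAT (2.18e-06), SOD3 (4.57e-05), GPX3 (0.000443), NQO1 (0.00377), HMOX1 (0.0108) and TXNRD1 (0.0233). SRXN1 (0.214) and SOD2 (0.422) were not. With the wound as a replicate block SOD2 was called (adjusted p = 0.0299). Within animals 1323 to 1325 alone, where 26.8% of all genes were called, the same 7 members were, and within animals 1326 to 1328 alone, where 13.3% were, CAT (0.00601), GPX3 (0.0342) and GCLM (0.000187) were. HMOX1 missed the threshold without replicate 3 (0.208) or 6 (0.117), NQO1 without replicate 2 (0.0961), and TXNRD1 without replicate 1 (0.104), 3 (0.0984) or 6 (0.116).

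**Figure D3:**
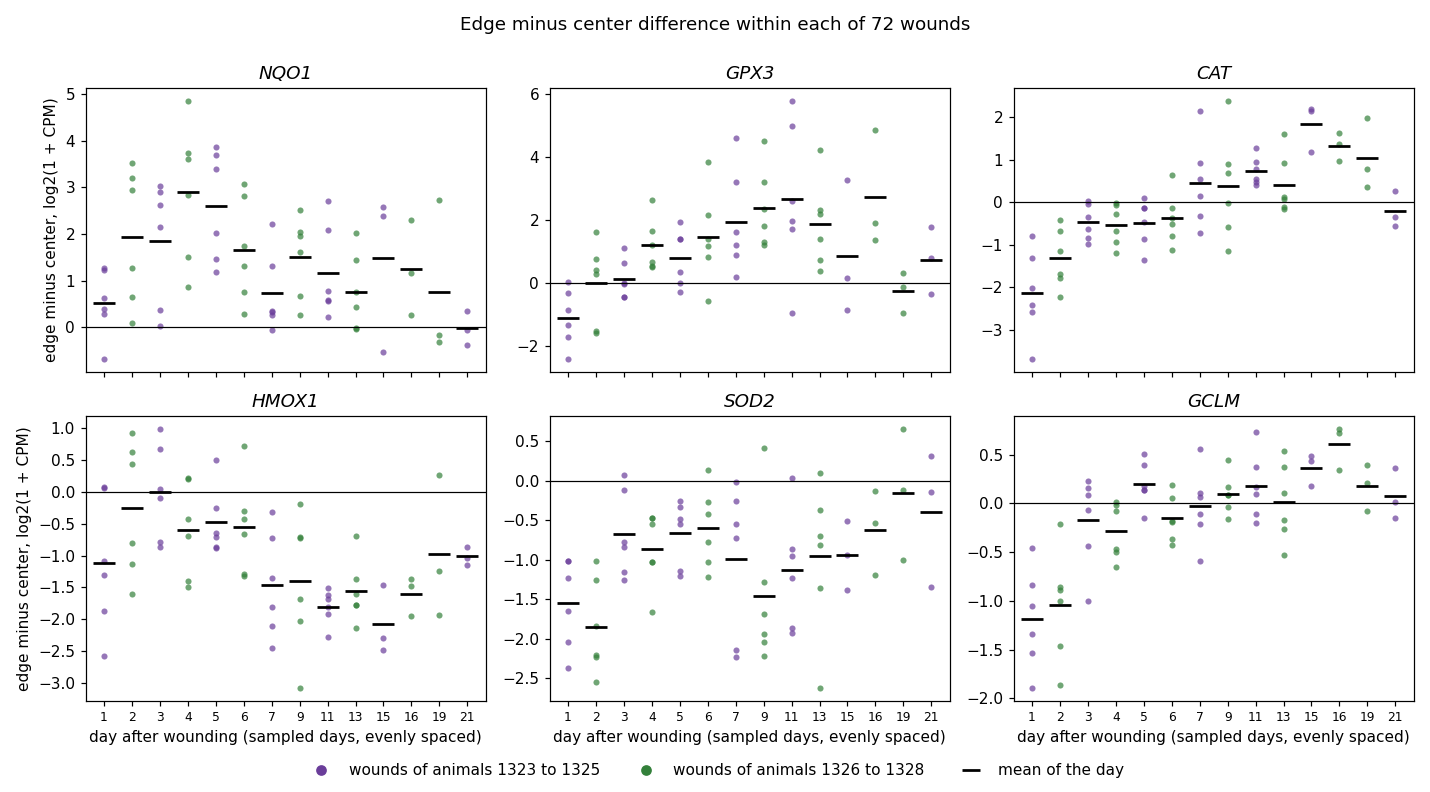
Edge minus center difference on the log2(1 + CPM) scale (vertical axis, scaled for each gene) within each of the 72 wounds by sampled day (horizontal axis) for NQO1, GPX3, CAT, HMOX1, SOD2 and GCLM, with wounds colored by the 3 animals sampled on that day. Black bars are the means of a day, and the wounds of CAT lie below 0 on days 1 and 2 and above 0 on days 15, 16 and 19.

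Differences of both signs were called on single days for CAT, SOD3 and GPX3. CAT was lower at the edge in 6 of 6 wounds on days 1 and 2, by 2.04 and 1.41 on the log2 scale (edgeR, adjusted p = 0.000522 and 0.00278). It was higher at the edge in 6 of 6 wounds on day 11 (0.74, adjusted p = 0.116) and 3 of 3 on days 15 (1.72, adjusted p = 0.0413), 16 and 19. With the wound as a block, day 4 (-0.48, adjusted p = 0.0302), day 11 (0.82, adjusted p = 0.00156) and day 16 (1.38, adjusted p = 0.0292) were called for CAT. SOD3 was lower at the edge by 2.28 and 1.06 on days 1 and 2 and higher by 1.28 and 1.49 on days 11 and 15, where the block gave 1.4 on day 15 (adjusted p = 0.0511) and called day 16 (1.28, adjusted p = 0.0365). On day 3 SOD3 and CAT were called lower at the edge without the 7 libraries and not with them (-0.93, adjusted p = 0.0230, and -0.94, adjusted p = 0.0418). With 3 wounds on day 15, leaving out any 1 of the replicate numbers 1, 2 and 3 lost the calls of CAT and SOD3, and that of SOD3 on day 11 was lost without replicate 2 (1.16, adjusted p = 0.0512).

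With the difference between edge and center averaged over the wounds of an animal, 7 of 9 members had the same sign in 6 of 6 animals (p = 0.0312 each by an exact permutation of signs, tested on both sides, and the smallest that 6 animals allow). The share of all genes with the same sign in 6 of 6 animals was not computed. Whether 7 of 9 is more than among other genes was therefore not tested. NQO1 was higher at the edge by 1.45 ± 0.40 (SD, n = 6 animals) and GPX3 by 1.12 ± 0.57. HMOX1 was lower at the edge by 1.01 ± 0.17, SOD2 by 0.98 ± 0.13, TXNRD1 by 0.45 ± 0.12, SRXN1 by 0.38 ± 0.11 and GCLM by 0.15 ± 0.08 on the log2(1 + CPM) scale. SOD3 (-0.02 ± 0.22, exact permutation p = 0.844) and CAT (-0.11 ± 0.21, p = 0.312) did not separate over all days. The wounds were also split into days 1 to 7 and 9 to 21. This split was not among the planned tests and uses the same differences as above, so it is a description without p-values. CAT was lower at the edge in 6 of 6 animals over days 1 to 7 (-0.70 ± 0.33) and higher in 6 of 6 over days 9 to 21 (0.72 ± 0.24). SOD3 went from -0.63 ± 0.38 (5 of 6 animals below 0) to 0.90 ± 0.50 (6 of 6 above 0). GCLM went from -0.40 ± 0.16 (0 of 6 animals above 0) to 0.18 ± 0.13 (5 of 6 above 0). Over all days the edge of GCLM was the higher one in 35 of 72 wounds. Against the day 0 sample of the same animal, HMOX1, SOD2 and SRXN1 were higher in 6 of 6 animals at both locations and NQO1 at the edge, and GCLM was lower at the edge in 6 of 6 (-0.18 ± 0.19), each with p = 0.0312 in the exact permutation test. Here too the share over all genes was not computed.

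Over the center samples of all 14 days, the levels of CAT, SOD3, SOD2, GCLM and GPX3 moved with markers of adipocytes. Of 7 such markers 6 were found, among them ADIPOQ, PLIN1 and LPL. Their summed CPM was 133 to 1612 on day 0, 4773 to 17352 in the day 1 center, 33.1 to 1588 at the day 1 edge and 112 to 3834 in the day 21 center. LEP was at 0 in 13 of the 150 samples, PLIN4 in 4, CIDEC in 2 and PLIN1 in 1, and no marker was at 0 on day 0. Over the 72 center samples the mean log2 level of these markers correlated with CAT at r = 0.93, with SOD3 at 0.91, with SOD2 at 0.73, with GCLM at 0.72 and with GPX3 at 0.71. Over the 72 edge samples r was 0.86 for CAT, 0.75 for SOD3, 0.36 for SOD2, 0.26 for GCLM and 0.12 for GPX3. Endothelial markers, 6 of 6 found, gave 0.54 for CAT, 0.57 for SOD3, 0.52 for SOD2, 0.40 for GCLM and 0.28 for GPX3 over the center samples. The points share days, animals and wounds, so these coefficients are descriptions. They span all 14 days, and none was computed within the early days. The part of adipose tissue in the early levels of these genes was not tested. Edge sample 6 of day 3, which held 12472 CPM of adipocyte markers and 67.5 of keratinocyte markers, also had the highest CAT (1162 CPM) and SOD3 of its state.

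**Figure D4:**
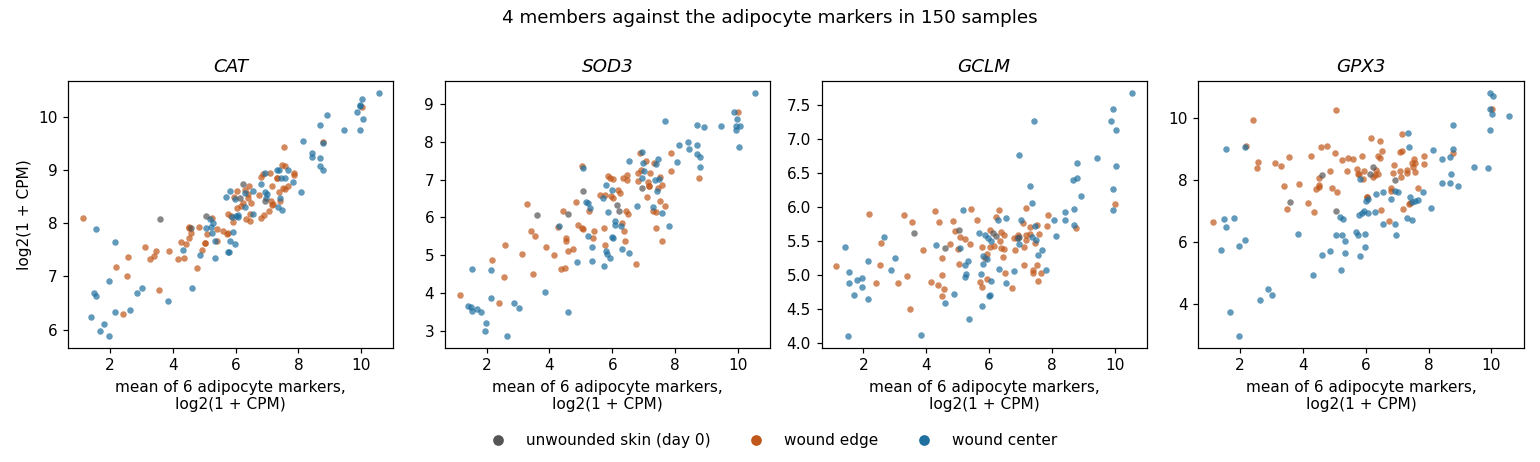
Level of CAT, SOD3, GCLM and GPX3 (vertical axes, log2(1 + CPM)) against the mean level of 6 adipocyte markers (horizontal axis, log2(1 + CPM)) in 150 samples of unwounded skin (grey), wound edge (orange) and wound center (blue). CAT and SOD3 follow the markers at both locations (r = 0.93 and 0.91 in the center), whereas the edge samples of GPX3 are spread along the axis without such a relation (r = 0.12).

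Macrophage markers, all 10 of which were found and which summed to 248 to 494 CPM on day 0 and 998 to 3314 in the day 1 center, correlated over the edge samples with HMOX1 (r = 0.79), TXNRD1 (0.75), SOD2 (0.71) and SOD3 (0.71). Over the center samples these values were 0.45, 0.48, 0.56 and 0.45. SRXN1 correlated with the mean of 7 of 8 neutrophil markers at r = 0.67 at the edge and 0.28 in the center. These markers did not move as 1 group. S100A8, S100A9 and S100A12 had higher medians at the edge (273, 656 and 340 CPM) than in the center (49.2, 113 and 86.3). CSF3R, CXCR2 and MMP9 had lower medians at the edge (34.2, 27.3 and 294 CPM) than in the center (98.7, 34.3 and 799). MMP8 was near 0, with 32 of 150 samples at 0. The share of these cell types in the levels was not tested. Among the members themselves, the highest coefficients in the center were between SOD3 and CAT (0.92), SOD2 and SOD3 (0.81), and SOD2 and TXNRD1 (0.80), and at the edge between HMOX1 and TXNRD1 (0.79), SOD2 and TXNRD1 (0.79), and HMOX1 and SOD2 (0.76). NQO1 and HMOX1 had r = 0.29 at the edge and 0.26 in the center.

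Levels of different genes were compared on the deposited FPKM, which are counts per gene length and depth. In unwounded skin GPX3 was the highest of the 9, with a median of 174 FPKM, followed by CAT (69.8), SOD3 (45.3), TXNRD1 (34.0), SOD2 (26.4), NQO1 (20.0), GCLM (9.44), SRXN1 (8.44) and HMOX1 (4.26). In the day 1 center SOD2 led with 925 FPKM before GPX3 (558), and HMOX1 stood at 116 FPKM. In the day 7 center the order was SOD2 (238), HMOX1 (153) and GPX3 (61.6), and at the day 4 edge SOD2 (214), GPX3 (194) and NQO1 (146). On day 21 GPX3 and CAT were again the highest of the 9 at the edge (112 and 60.2 FPKM) and in the center (61.3 and 55.6).

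Across the 29 states the neighbors in the order of a gene's means mostly differed by less than their pooled SD, in 28 of 28 pairs for NQO1, SOD3, GPX3 and CAT, 27 for TXNRD1 and GCLM, 26 for SOD2, 25 for SRXN1 and 24 for HMOX1. The 2 genes most like each member were found by Pearson's r of the means over these 29 states, among 17916 genes. For HMOX1 they were SLC11A1 (r = 0.98), a metal transporter of phagosomes, and CCR1 (0.97), a chemokine receptor of leukocytes. For SOD2 they were TMED5 and WTAP (0.98 each), for NQO1 CHST4 (0.95), a sulfotransferase, and CYP4X1 (0.91), a cytochrome P450, for SOD3 SCUBE1 (0.98) and PLPP3 (0.97), and for CAT a gene listed as ATGL (0.95) and ACSS3 (0.95). TXNRD1 was most like PPM1H (0.95) and ZC3H7A (0.94), GCLM like a row of SOS2 (0.95, a symbol that 2 rows carry) and SLC1A3 (0.94), SRXN1 like SMAP1L and SEPTIN9 (0.95 each), and GPX3 like IMPA2 (0.92) and ZDHHC14 (0.91).

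The surrounding pathways were described by lists of genes. Over 23 regulators and further targets of NRF2, 44.7% of gene and day pairs in the center were called higher and 17.4% lower, against 28.2% and 27.5% over all genes, with a median log2 fold change of 0.31, where the median of all genes was -0.03. NFE2L2, which encodes NRF2 itself, was called lower on 9 days in the center and 7 at the edge (median -0.40 and -0.28), and KEAP1 was called higher on 2 days in the center. In the pentose phosphate pathway, PGD, which supplies NADPH, rose on 14 days in the center (median 1.13) and TKT, the transketolase, on 12 (1.17). GCLC, the catalytic partner of GCLM, fell on 8 days in the center and 9 at the edge (median -0.47 and -0.74), and EPHX1, the microsomal epoxide hydrolase, fell on 11 days in the center (-1.17).

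Among 18 genes of the glutathione system, 36.1% of center pairs were called higher and 33.7% lower (28.2% and 27.5% over all genes), with a median of -0.08. GPX1, the cytosolic glutathione peroxidase, rose on 14 days in the center and 12 at the edge (median 2.91 and 2.07), and GPX8 on 14 and 12 (2.07 and 1.38). CHAC1, which degrades glutathione, fell on 14 days at both locations (median -6.42 in the center and -3.91 at the edge), and GGCT on 13 and 9 (-4.25 and -1.55). Among 19 tested genes of the thioredoxin system, 29.3% of center pairs were called higher and 33.1% lower (median -0.08), where all genes had the same 28.2% and 27.5%, with PRDX3, the mitochondrial peroxiredoxin, higher on 14 days (1.42) and PRDX6 lower on 14 (-0.86, a symbol that 2 rows carry). The other 5 superoxide dismutase and copper genes were called higher in 14.3% and lower in 24.3% of center pairs, against 28.2% and 27.5% over all genes. SOD1, the cytosolic superoxide dismutase, had a median log2 fold change of 0.08 in the center and was called higher there on 3 days.

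Among 18 genes of heme and iron handling, 60.3% of center pairs were called higher and 10.3% lower (median 0.67), and 42.9% and 7.94% at the edge (median 0.46). Over all genes these shares were 28.2% and 27.5% in the center and 19.9% and 14.6% at the edge. SLC11A1 rose on 14 days at both locations (median 7.15 in the center and 5.66 at the edge). Its median in unwounded skin was 0.587 CPM, near 0, and 138 CPM in the day 7 center, so the size of its fold change rests on a low baseline. CD163, the receptor of macrophages for hemoglobin bound to haptoglobin, rose on 14 days in the center and 10 at the edge (3.37 and 2.06). FTH1 and FTL, the ferritin chains, rose on 14 days in the center (2.17 and 1.39), with 6 and 7 rows of the same symbol between which reads could be split. SLC40A1, the iron exporter ferroportin, fell on 13 days in the center and 12 at the edge (-1.32 and -1.38, a symbol that 2 rows carry), and HMOX2, the constitutive heme oxygenase, fell on 12 days in the center (-0.47). Markers of erythrocytes, 5 of 7 found, had summed CPM of 0.628 to 20.2 on day 0 and 6.52 to 109 in the day 1 center, and reached 256 at the edge on days 6 and 9. Their part in these levels was not tested.

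Among 13 genes of superoxide production, 65.4% of center pairs were called higher and 7.69% lower (median 2.09), and at the edge 65.9% were called higher (median 1.69), where 28.2%, 27.5% and 19.9% of pairs over all genes were called. NCF1 and CYBB, subunits of the phagocyte NADPH oxidase, rose on 14 days at both locations, with medians of 4.13 and 3.81 in the center. Their medians in unwounded skin were 1.14 and 11.3 CPM, so the baseline of NCF1 was low too. DUOXA1, the maturation factor of an epithelial oxidase, was called lower on 8 days in the center (median -2.52) and had a median of 0.78 at the edge. XDH, xanthine dehydrogenase, was called higher on 9 days at the edge (2.26).

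**Figure D5:**
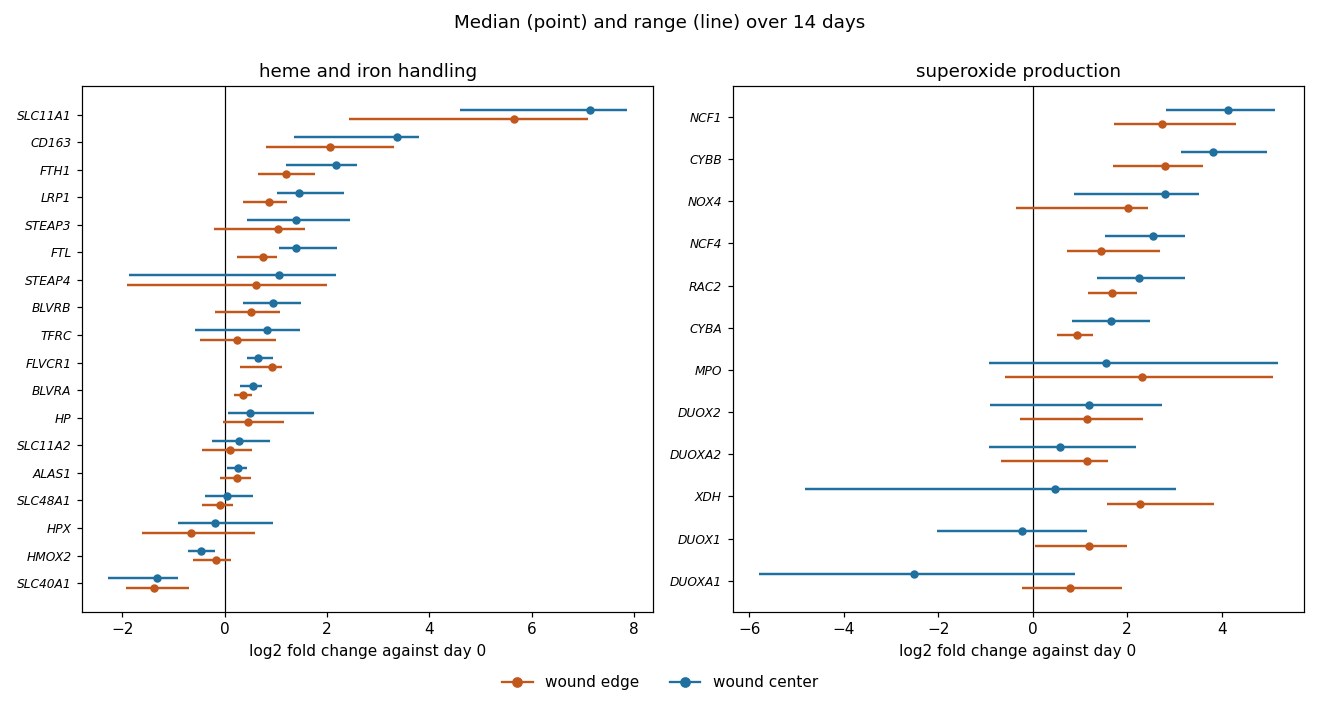
Log2 fold change against unwounded skin (horizontal axis) of genes of heme and iron handling (left) and of superoxide production (right), as the median (point) and range (line) over 14 days at the wound edge (orange) and in the wound center (blue). SLC11A1 has the highest median plotted on the left (7.15 in the center) and NCF1 on the right (4.13), and DUOXA1 has the lowest center median (-2.52). In unwounded skin SLC11A1 and NCF1 had low medians of 0.587 and 1.14 CPM.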

How the data were processed

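RNA was enriched for poly-A and sequenced as paired reads by a sequencing provider, which removed adapter, poly-N and low-quality reads and aligned the rest to a reference genome. The aligner, the counter and the build are not given in the sources used here. The authors deposited raw read counts per gene and, in a separate table, FPKM values, which are counts per gene length and depth. The counts of 150 samples were read as deposited, and 0 columns belonged to no sample. Counts were compared between all 11175 pairs of libraries, and none agreed within sampling noise (lowest chi-square per degree of freedom 4.92, day 3 edge and center sample 4). The members and gene lists were chosen with earlier results of these data known. The groups were day and location, as the sample labels give them.

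Genes were filtered by filterByExpr (minimum count 10, total 15) and normalized by TMM. Wound states and later days were tested with edgeR 4.0.16 (glmQLFit, glmQLFTest) in 1 fit of 150 samples, and edge against center in a fit for each day, with Benjamini-Hochberg adjustment over all genes tested in a contrast. CPM were taken per total count, and log2(1 + CPM) has a pseudocount of 1. Means per animal were compared by exact sign-flip permutation. DESeq2 1.42.0 served as an alternative, next to other scaling, filters, blocks and left-out samples. The scripts were tested on simulated data. For each member the 2 genes with the highest Pearson's r over state means were named. The wound pairs edge and center samples, and over 72 wounds the mean r of their deviations from the group means was 0.259, with 64 above 0. R 4.3.3 and Python 3.11.15 were used. With several wounds per animal, p-values over samples measure the spread between wounds. Some genes of the pathway lists are not reported here by name, though the shares and medians of their lists include them.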

Additional observations from a re-analysis of the deposited data

Results flagged for a closer look

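Of 189 groups of 6 samples, 10 held a sample far from the others by Dixon's ratio (critical value 0.625), where chance gives 9.45. They were HMOX1 at the day 7 edge (sample 2, ratio 0.705, 589 CPM against 176 to 252) and in the day 5 center (sample 1, 0.636, 840.2 CPM against 343 to 475). SOD3 (0.657) and CAT (0.628) were high in edge sample 6 of day 3, which lacked keratinocyte markers. TXNRD1 was high in day 13 edge sample 4 (0.678) and low in day 9 center sample 2 (0.631). GCLM was low in day 5 center sample 4 (0.694) and CAT in day 7 center sample 6 (0.685). SRXN1 was high in day 1 edge sample 1 (0.912, 80.6 CPM against 51.3 to 53.4) and low in day 13 center sample 1 (0.758).

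Over the 14 days, edgeR's F test called a change in the gap of edge and center for GCLM (adjusted p = 9.5e-08), CAT (2.18e-06), SOD3 (4.57e-05), GPX3 (0.000443), NQO1 (0.00377), HMOX1 (0.0108) and TXNRD1 (0.0233).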

How the results depend on the processing

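No called member changed direction against unwounded skin, between edge and center or between days under any setting. DESeq2 kept 125 of 126 calls against unwounded skin, 23 of 23 between days and 46 of 46 between edge and center. Without the 7 libraries 122, 23 and 45 were kept. With the animal as a replicate block 118 of 126 calls were kept, and with the wound as a replicate block 42 of 46, with 11 gained. With the wounds of an animal summed 122 of 126, 23 of 23 and 38 of 46 were kept, with only day 0 and the state in a fit 117 of 126, and with all samples in one fit 38 of 46. Pairs of a member and a contrast called higher on a later day, both SRXN1, numbered 1 without TMM in place of 2. The F test over days called 3 members in animals 1326 to 1328 alone, in place of 7. GCLM edge minus center per animal was 0.18 over days 9 to 21 alone, in place of -0.15. Between edge and center, 16 of the 126 pairs of a member and a day were called higher at the edge with all samples, and 30 higher in the center. Over all genes 12.5% and 11% were. With 1 replicate number left out, members were called lower at the edge in 4 to 9 pairs (9 with all), lower in the center in 6 to 18 (19), higher at the edge than in the center in 9 to 14 (16), and higher on a later day in 1 to 2 (2). The cause was not tested. States of days 15 to 21 had 3 samples each, and leaving out 1 replicate number leaves 2 of them.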
